A study of Mus musculus with 16 samples.

Results

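Interferon-stimulated genes were followed in the uterus of adult mice that had received the soy isoflavone genistein or oil as newborns and the synthetic glucocorticoid dexamethasone or saline as adults. The list held 39 genes that are widely used as readouts of interferon action. They were chosen by name, with earlier results of these data known. A symbol was given to a probe through its RefSeq accession, which placed 37 of the 39 genes on 52 probes. The brightest probe stood for each gene, and 36 genes entered the fit among 24666 genes and unnamed targets. All 36 were well above background on all 16 arrays, so the filter on dim probes selected nothing among them, and no probe of a member was saturated. Mx1 and Mx2 were not matched to a probe and were not analysed here. The only probe of Oas1a lacked a value on 1 array, so that gene was fitted separately on 15 arrays.

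Interferons signal through cell surface receptors and Janus kinases to the STAT transcription factors. After type I interferon, a complex that holds STAT2 and IRF9 binds the interferon-stimulated response element (ISRE). After type II interferon, STAT dimers bind the gamma-activated site (GAS) and switch on IRF1, the guanylate-binding proteins and the antigen-processing machinery. In the uterus, interferon gamma from natural killer cells remodels the mouse implantation site, and in sheep and cattle the embryo's interferon tau induces these genes in the endometrium. Dexamethasone acts on the glucocorticoid receptor and is used to dampen inflammation.

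Each of 4 groups had 4 one-colour arrays of whole uterus RNA. GenD and GenV mice received genistein at 50 mg/kg in corn oil on postnatal days 1 to 5, and SalD and SalV mice received 20 µl of oil. The sample labels call that neonatal control saline, whereas the series' design text gives corn oil. All mice had adrenals and ovaries removed at 6 weeks, so all groups lacked the main sources of glucocorticoid and ovarian steroids. At 8 weeks GenD and SalD mice were injected intraperitoneally with dexamethasone at 1 mg/kg, GenV and SalV mice received 100 µl of saline, and uteri were taken after 4 h. The series set out to ask whether early genistein changes glucocorticoid signalling in the adult uterus. The labels do not say whether replicates are separate mice, and the p-values cover only variation among arrays, which could be technical.

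Values are log2 of the background-subtracted spot signal minus the array's 75th percentile, called the scaled log2 signal, and a value of 0 is the signal of that percentile. Levels were compared between arrays for the same gene and not between genes. The 75th percentile lay at 1321 to 1803 in GenD, 1439 to 1970 in GenV, 1987 to 2719 in SalD and 948 to 2029 in SalV arrays. The first principal component of all genes carried 29.7% of the variance and set the 4 SalD arrays, at 65.1 to 102, apart from the others, at -68.3 to 18.1. Known glucocorticoid-induced genes were listed with earlier results of these data known, so their count is not independent support. Over all genes and targets 2.49% rose after genistein and 8.44% rose in controls. All 12 listed glucocorticoid-induced genes rose in both, among them Fkbp5, a co-chaperone of the receptor, by 4.56 ± 0.38 log2 units (SE) in GenD against GenV and 4.44 ± 0.38 in SalD against SalV. Tsc22d3, the leucine zipper protein GILZ, rose by 2.40 ± 0.22 and 2.42 ± 0.22 in the same 2 comparisons (limma, adjusted p = 2.23e-05 and 2.21e-05). The markers of uterine epithelium (7 of 7), stroma (7 of 7) and smooth muscle (5 of 6) were measured.

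Promoters of 7 members are shown because these genes span the behaviours described below: Gbp2, Gbp3, Ifit3, Irf8, Isg15 and Psmb9 fell with dexamethasone in at least the control mice, and Bst2 carries both kinds of site and did not pass the test. Each is the 250 bases before a RefSeq gene start in GRCm38.p6, 5′ to 3′. Gbp3 and Irf8 each have a further RefSeq start that is not shown, and the window there holds no ISRE or GAS match. Capitals mark a match to the ISRE core, which is GAAA, any 2 bases and GAAA, or to the GAS palindrome TTCNNNGAA on either strand, and matches that overlap run together.
Gbp2: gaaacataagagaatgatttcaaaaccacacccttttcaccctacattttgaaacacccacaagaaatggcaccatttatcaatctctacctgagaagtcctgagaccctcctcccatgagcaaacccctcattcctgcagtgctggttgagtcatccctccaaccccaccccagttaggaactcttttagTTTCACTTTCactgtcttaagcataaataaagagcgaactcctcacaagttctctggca
Gbp3: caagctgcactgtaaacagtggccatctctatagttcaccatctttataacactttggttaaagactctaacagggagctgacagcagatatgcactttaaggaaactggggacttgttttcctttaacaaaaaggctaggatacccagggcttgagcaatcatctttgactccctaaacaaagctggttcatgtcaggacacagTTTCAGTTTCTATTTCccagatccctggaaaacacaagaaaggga
Ifit3: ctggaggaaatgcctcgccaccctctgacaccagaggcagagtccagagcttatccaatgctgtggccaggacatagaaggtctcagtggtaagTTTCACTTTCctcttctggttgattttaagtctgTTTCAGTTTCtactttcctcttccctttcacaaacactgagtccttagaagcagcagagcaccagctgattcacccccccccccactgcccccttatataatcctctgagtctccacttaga
Irf8: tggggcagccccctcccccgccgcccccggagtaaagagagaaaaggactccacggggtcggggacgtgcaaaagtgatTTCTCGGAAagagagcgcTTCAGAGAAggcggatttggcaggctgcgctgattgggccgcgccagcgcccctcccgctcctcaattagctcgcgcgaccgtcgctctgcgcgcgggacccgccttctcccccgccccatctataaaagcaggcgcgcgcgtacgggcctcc
Isg15: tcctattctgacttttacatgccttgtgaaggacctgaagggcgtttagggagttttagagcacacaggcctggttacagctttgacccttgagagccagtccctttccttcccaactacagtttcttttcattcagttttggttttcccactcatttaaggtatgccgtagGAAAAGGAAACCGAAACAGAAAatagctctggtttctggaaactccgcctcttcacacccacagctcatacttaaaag
Psmb9: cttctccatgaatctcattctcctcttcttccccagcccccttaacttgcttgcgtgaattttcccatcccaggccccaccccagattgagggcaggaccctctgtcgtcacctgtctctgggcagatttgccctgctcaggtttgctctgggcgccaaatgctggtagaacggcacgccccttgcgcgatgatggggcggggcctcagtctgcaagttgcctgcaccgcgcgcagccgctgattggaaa
Bst2: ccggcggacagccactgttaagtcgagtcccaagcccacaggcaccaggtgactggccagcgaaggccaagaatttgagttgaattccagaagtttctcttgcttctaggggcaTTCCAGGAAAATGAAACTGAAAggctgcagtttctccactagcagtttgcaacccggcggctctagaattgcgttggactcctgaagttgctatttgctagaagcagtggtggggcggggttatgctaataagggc
Gbp2 lies on the plus strand at chr3:142620413-142620662 and Gbp3 at chr3:142559794-142560043, with the ISRE matches near the 3′ end of each stretch. Ifit3, on the plus strand at chr19:34583279-34583528, holds 2 separate ISRE matches. Irf8, on the plus strand at chr8:120736108-120736357, holds 2 GAS matches and no ISRE match. Isg15, on the minus strand at chr4:156200819-156201068, holds 3 overlapping ISRE matches. Psmb9, on the minus strand at chr17:34187331-34187580, holds neither. Its promoter window shares 275 of 300 bases with that of Tap1, which is read in the other direction. Bst2, on the minus strand at chr8:71537473-71537722, holds 2 ISRE matches and 1 GAS match that overlap.

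RefSeq promoters were found for 30 members, 37 promoters in all, each with 250 bases before and 50 after the start. The ISRE core was present in 16 of 37 (43.2%), against 3.44% of 32851 promoters of the table. The GAS palindrome was present in 10 of 37 (27.0%), against 8.3% of the table. An inverted pair of glucocorticoid receptor half-sites, ACANNNTGT, was present in 3 of 37 (8.11%), against 6.85% of the table. The ISRE core was in 6 of 15 promoters of the members that fell with dexamethasone in controls, against 9 of 21 promoters of the members not called. For the GAS palindrome these counts were 5 of 15 and 4 of 21. These matches are letters in a window and say nothing of binding.

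**Figure D1:**
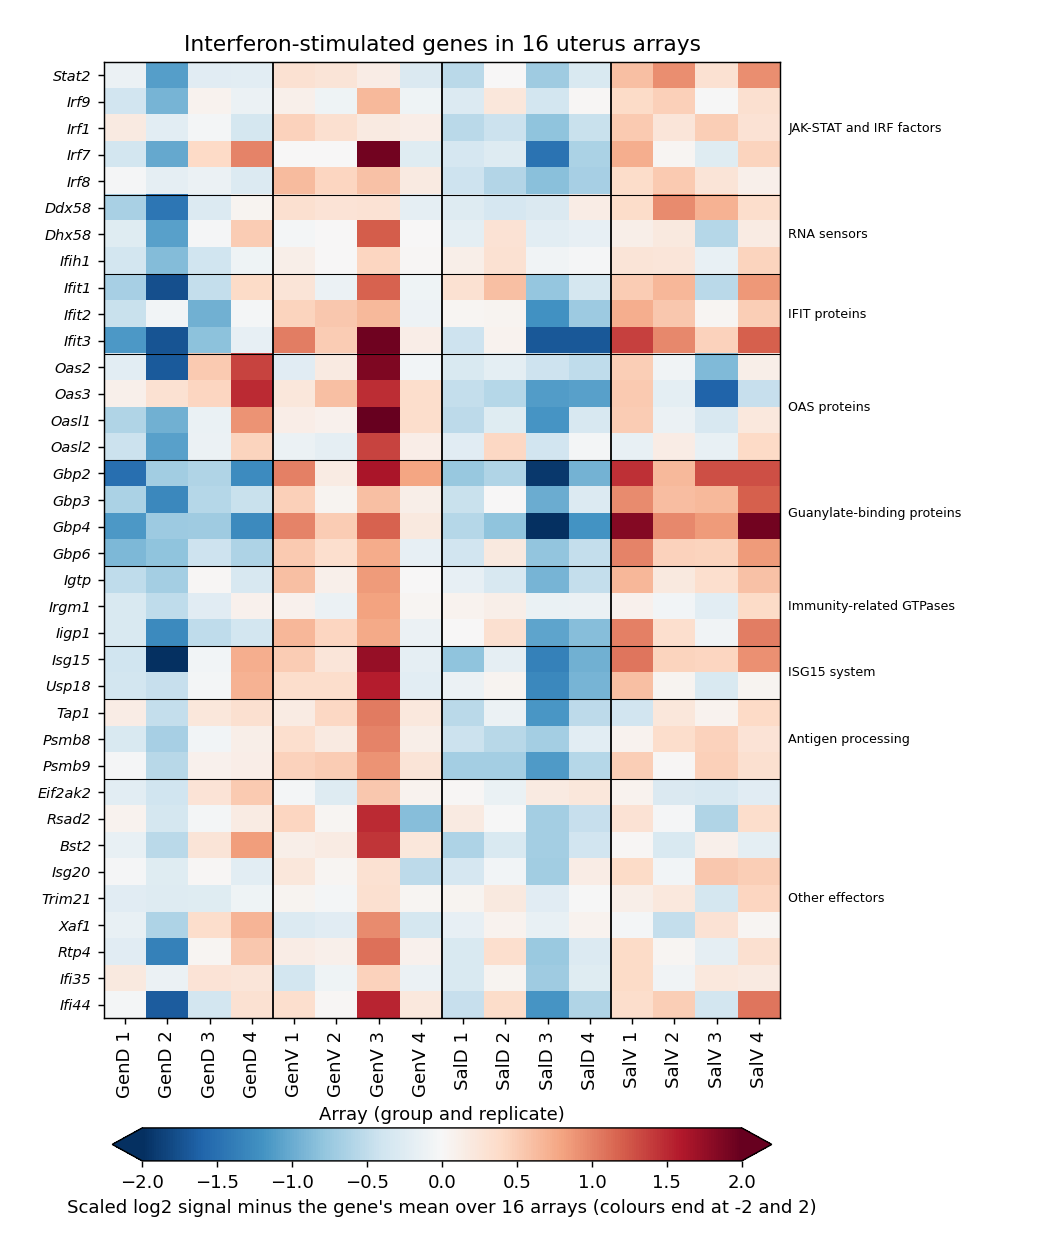
Scaled log2 signal of 36 interferon-stimulated genes (rows, grouped by role) on 16 arrays (columns), each minus the gene's mean over the 16 arrays; blue is lower and red is higher. The guanylate-binding proteins are blue on all GenD and nearly all SalD arrays and red on nearly all GenV and all SalV arrays, and GenV array 3 is red for every gene shown.

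Arrays of 1 group differed widely in the level of the whole list. The median over the 36 members of the signal relative to each gene's mean was -0.31, -0.71, -0.05 and 0.13 on GenD arrays 1 to 4, and 0.28, 0.13, 0.97 and 0.03 on GenV arrays 1 to 4. It was -0.32, 0.00, -0.78 and -0.41 on SalD arrays 1 to 4, and 0.44, 0.22, 0.06 and 0.39 on SalV arrays 1 to 4. The dexamethasone and vehicle arrays did not overlap in the control mice, and in the genistein mice GenD 4 lay within the range of the GenV arrays. GenV 3 had the highest signal of its group for 32 of 36 members, GenD 2 the lowest for 29, SalD 3 the lowest for 32 and SalD 2 the highest for 26. The median change of the members is given below with and without these arrays.

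**Figure D2:**
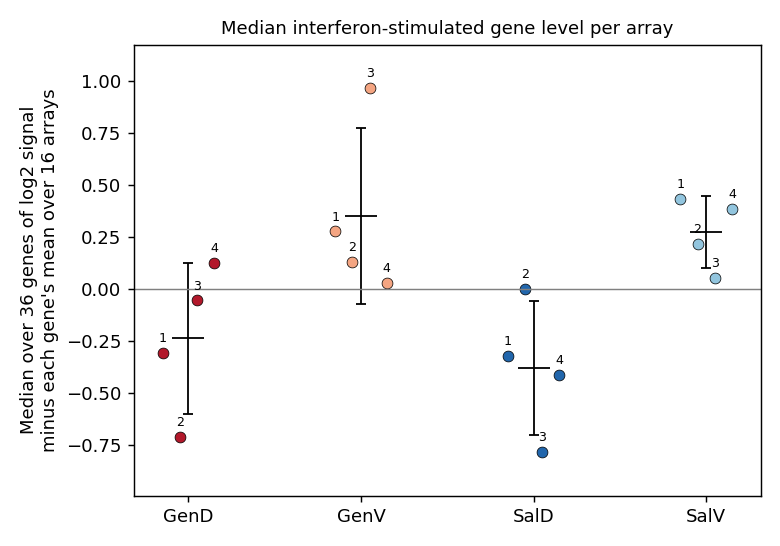
Median over 36 interferon-stimulated genes of the scaled log2 signal minus each gene's mean over 16 arrays, for each array (points, labelled by replicate) with group mean and SD (n = 4). GenV array 3, at 0.97, stands above all other arrays, and SalD array 3, at -0.78, and GenD array 2, at -0.71, are the lowest.

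At 4 h after dexamethasone, the members as a whole lay lower in both neonatal arms, led by the guanylate-binding proteins and Ifit3. In control mice 13 of 36 members fell and none rose in SalD against SalV, where 14.6% of all genes and targets fell and 8.44% rose. After genistein 6 of 36 fell and none rose in GenD against GenV, where 2.79% of all fell and 2.49% rose. The 6 were Gbp2, Gbp3, Gbp4, Gbp6, Ifit3 and Irf8, and all 6 were among the 13, so the shared genes are 100% of the shorter list and 46.2% of the longer one. The other 7 that fell in controls were Stat2, Irf1, Ifit2, Igtp, Isg15, Psmb8 and Psmb9.

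**Figure D3:**
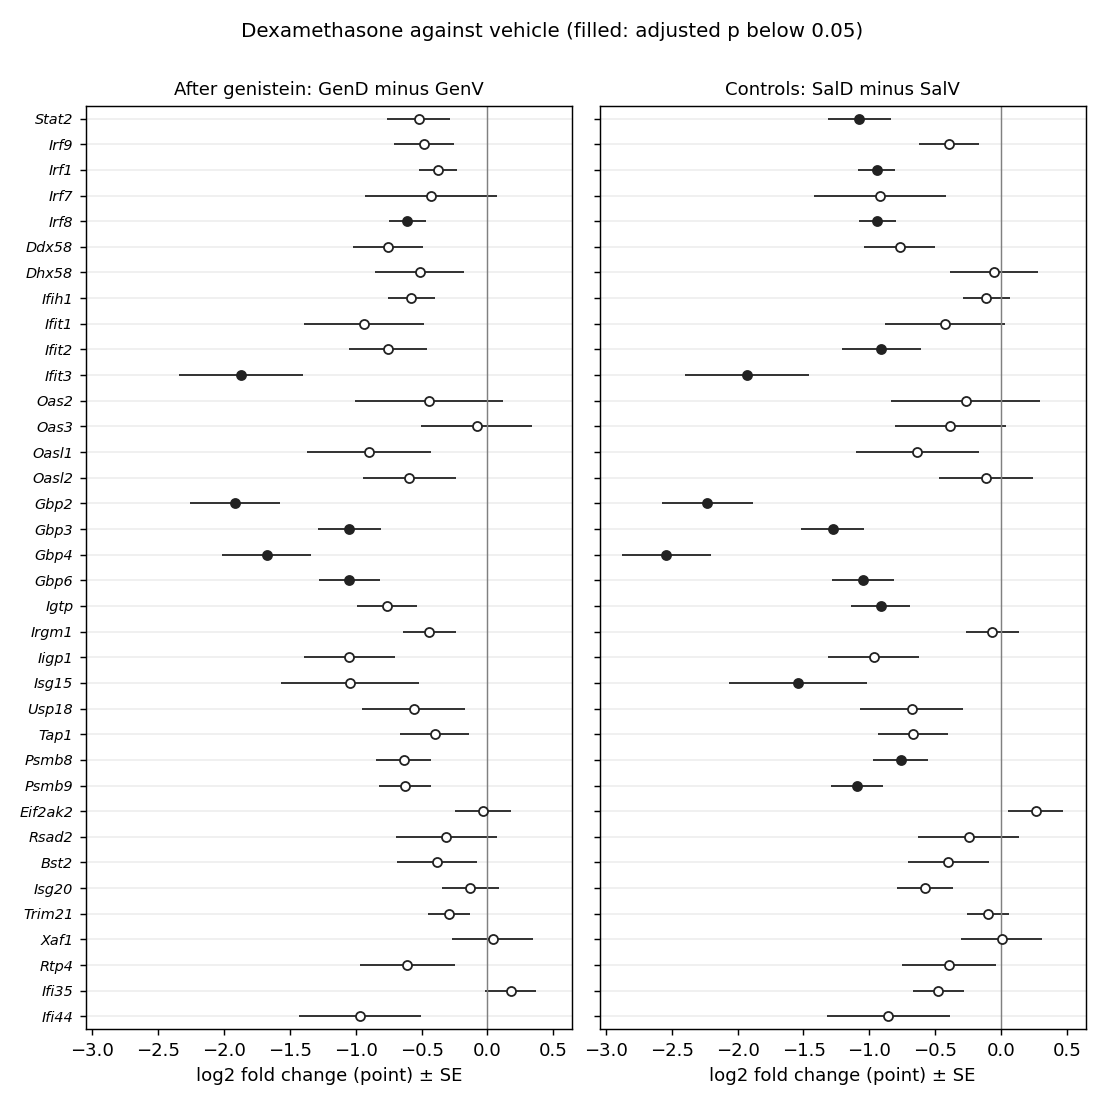
Log2 fold change ± SE of each member with dexamethasone after genistein (left, GenD minus GenV) and in controls (right, SalD minus SalV); filled points have an adjusted p below 0.05. Gbp2, Gbp4 and Ifit3 lie farthest left in both panels, and points lie left of 0 for 34 of 36 members in each.

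The guanylate-binding proteins, large GTPases that coat vacuoles and bacteria and are strongly induced by interferon gamma, were the role with the largest median change, -1.36 after genistein and -1.75 in controls. All 4 measured members fell in both arms, against 2.79% of all genes and targets after genistein and 14.6% in controls. Gbp2 read 1.00, 1.81, 1.91 and 1.25 on GenD arrays 1 to 4, against 3.52, 2.68, 4.15 and 3.29 on GenV arrays. In the controls it read 1.75, 1.91, 0.58 and 1.56 on SalD arrays, against 3.97, 3.15, 3.80 and 3.80 on SalV arrays. Every dexamethasone array lay below every vehicle array in both arms. The change of Gbp2 was -1.92 ± 0.34 after genistein (SE, 3.77-fold, adjusted p = 0.0047) and -2.23 ± 0.34 in controls (4.69-fold, adjusted p = 0.00092).

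Gbp4 read -3.88, -3.46, -3.45 and -4.01 on GenD arrays, against -1.75, -2.24, -1.56 and -2.55 on GenV arrays. It read -3.31, -3.54, -4.76 and -3.94 on SalD arrays, against -0.91, -1.78, -1.88 and -0.81 on SalV arrays. These groups were also fully apart. Gbp4 changed by -1.67 ± 0.34 after genistein (3.19-fold, adjusted p = 0.0103) and by -2.54 ± 0.34 in controls (5.83-fold, adjusted p = 0.000358). Its size after genistein depended on processing, from -1.85 to -0.57 over 31 other settings. The call there was lost under normexp background correction (adjusted p = 0.347). Gbp3 changed by -1.05 ± 0.24 after genistein and by -1.28 ± 0.24 in controls (adjusted p = 0.0196 and 0.00276). For Gbp6 the change was -1.05 ± 0.23 in each arm (adjusted p = 0.0181 and 0.00706). The Gbp6 and Ifit3 probes belong to genes with near-identical neighbours, so which copy gave their signal is uncertain.

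**Figure D4:**
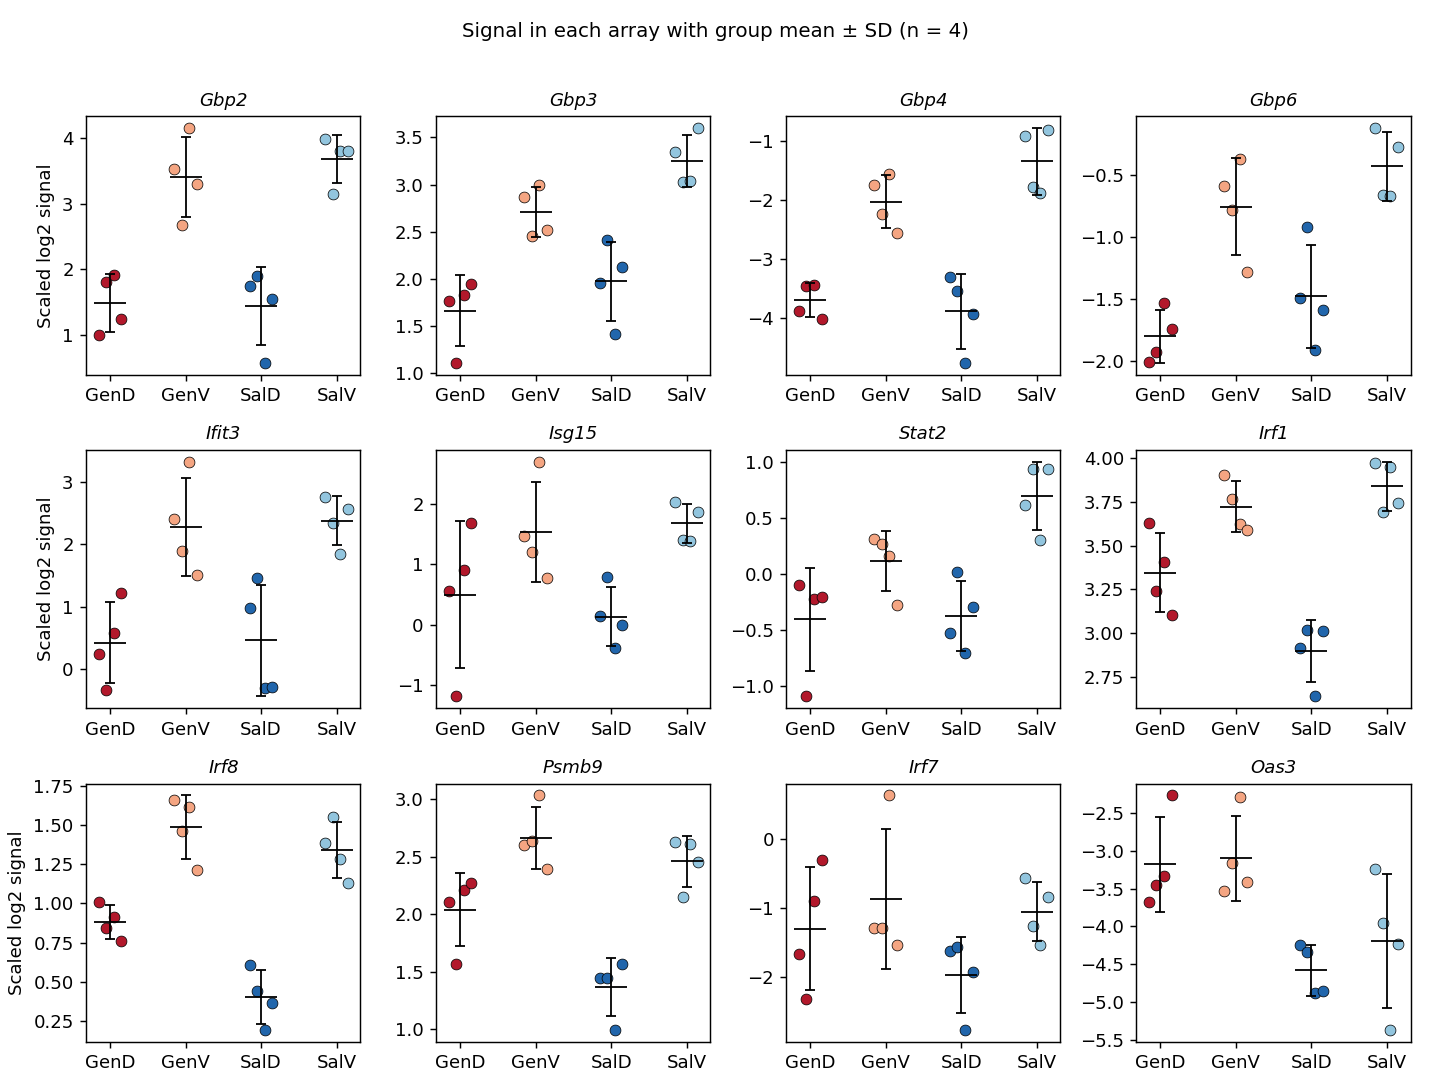
Scaled log2 signal of 12 members on each array (points) with group mean ± SD (n = 4), GenD, GenV, SalD and SalV from left to right; each panel has its own scale. The dexamethasone arrays lie below the vehicle arrays in both arms for Gbp2, Gbp3, Gbp4, Gbp6, Ifit3, Irf8 and Psmb9. Isg15, Stat2, Irf1 and Irf7 overlap only after genistein, and Oas3 overlaps in both arms.

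The IFIT proteins bind viral RNA and block its translation. Ifit3 read 0.24, -0.35, 0.57 and 1.22 on GenD arrays, against 2.41, 1.89, 3.34 and 1.52 on GenV arrays. In controls it read 0.98, 1.45, -0.31 and -0.30 on SalD arrays, against 2.76, 2.34, 1.84 and 2.58 on SalV arrays. SalD arrays 3 and 4 lay well below SalD 1 and 2, and no groups overlapped. Ifit3 changed by -1.87 ± 0.47 after genistein (3.66-fold, adjusted p = 0.033) and by -1.93 ± 0.47 in controls (3.81-fold, adjusted p = 0.0111). Ifit2 fell by 0.91 ± 0.30 in controls (adjusted p = 0.0408), and its difference after genistein was -0.75 ± 0.30 (adjusted p = 0.185). Ifit1 passed in neither, with -0.94 ± 0.46 after genistein and -0.43 ± 0.46 in controls.

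Isg15, the ubiquitin-like modifier that is conjugated to proteins after interferon, varied widely within the genistein groups. It read 0.56, -1.18, 0.91 and 1.69 on GenD arrays, against 1.47, 1.20, 2.70 and 0.78 on GenV arrays. It read 0.15, 0.79, -0.39 and 0.00 on SalD arrays, against 2.04, 1.41, 1.39 and 1.88 on SalV arrays. The control groups were apart and the genistein groups overlapped widely. Isg15 fell by 1.54 ± 0.52 in controls (2.91-fold, adjusted p = 0.0463) and differed by -1.04 ± 0.52 after genistein (adjusted p = 0.32). The call in controls held in only 15 of 31 other settings. Usp18, the protease that removes ISG15 and restrains the type I receptor, differed by -0.56 ± 0.39 after genistein and -0.68 ± 0.39 in controls and passed in neither.

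Among the transcription factors, 3 of 5 fell in controls and 1 of 5 after genistein, against 14.6% and 2.79% of all genes and targets. Stat2, a subunit of the type I complex, read -0.10, -1.09, -0.22 and -0.20 on GenD arrays, against 0.31, 0.27, 0.16 and -0.28 on GenV arrays. It read -0.52, 0.02, -0.70 and -0.29 on SalD arrays, against 0.62, 0.94, 0.31 and 0.94 on SalV arrays. The genistein groups overlapped and the control groups did not, and Stat2 differed by -0.52 ± 0.24 after genistein (adjusted p = 0.27) and fell by 1.08 ± 0.24 in controls (adjusted p = 0.00718). Irf9, the DNA-binding subunit of the same complex, read 0.89, 0.34, 1.33 and 1.15 on GenD arrays, against 1.37, 1.18, 1.91 and 1.17 on GenV arrays. Its levels were 0.99, 1.50, 0.89 and 1.29 on SalD arrays, against 1.65, 1.75, 1.26 and 1.59 on SalV arrays. Both pairs of groups overlapped, and the differences of -0.48 ± 0.23 and -0.39 ± 0.23 did not pass (adjusted p = 0.29 and 0.226).

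Irf7, which amplifies type I interferon production, had the widest spread of the factors. It read -1.67, -2.32, -0.89 and -0.30 on GenD arrays, against -1.28, -1.28, 0.64 and -1.54 on GenV arrays. It read -1.63, -1.56, -2.76 and -1.93 on SalD arrays, against -0.56, -1.26, -1.53 and -0.84 on SalV arrays. The control groups stood just apart and the genistein groups overlapped, and neither difference passed, at -0.43 ± 0.50 and -0.92 ± 0.50 (adjusted p = 0.749 and 0.195). Irf8 is a factor of macrophages and dendritic cells, and its promoter stretch shown above holds 2 GAS matches. It read 1.01, 0.85, 0.92 and 0.76 on GenD arrays, against 1.66, 1.46, 1.62 and 1.21 on GenV arrays. In controls it read 0.61, 0.44, 0.19 and 0.36 on SalD arrays, against 1.39, 1.56, 1.28 and 1.13 on SalV arrays. Replicates lay close together, and Irf8 changed by -0.61 ± 0.14 after genistein and by -0.94 ± 0.14 in controls (adjusted p = 0.0209 and 0.00073).

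Irf1, the early interferon gamma factor, read 3.63, 3.24, 3.40 and 3.10 on GenD arrays, against 3.91, 3.77, 3.62 and 3.59 on GenV arrays. In controls it read 2.91, 3.01, 2.64 and 3.01 on SalD arrays, against 3.97, 3.69, 3.95 and 3.74 on SalV arrays. Only GenD array 1 reached the level of the vehicle arrays. Irf1 fell by 0.94 ± 0.14 in controls (1.92-fold, adjusted p = 0.000816) and differed by -0.38 ± 0.14 after genistein (1.3-fold, adjusted p = 0.164).

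In antigen processing, both immunoproteasome subunits on the member list, Psmb8 and Psmb9, fell in controls and neither passed after genistein. Over all genes and targets 14.6% fell in controls and 2.79% after genistein. Psmb10, a subunit outside the member list, is given below. Psmb9 read 2.11, 1.57, 2.21 and 2.27 on GenD arrays, against 2.60, 2.64, 3.04 and 2.39 on GenV arrays. It read 1.45, 1.45, 0.99 and 1.57 on SalD arrays, against 2.63, 2.15, 2.61 and 2.45 on SalV arrays. No groups overlapped within an arm, and the difference was -0.63 ± 0.19 after genistein (adjusted p = 0.0835) and -1.09 ± 0.19 in controls (adjusted p = 0.00216). Psmb8 gave -0.64 ± 0.21 and -0.76 ± 0.21 (adjusted p = 0.102 and 0.0193). Tap1, the peptide transporter that shares its promoter with Psmb9, gave -0.40 ± 0.27 and -0.67 ± 0.27 and passed in neither (adjusted p = 0.487 and 0.0834).

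The immunity-related GTPases act on pathogen vacuoles. Igtp (IRGM3) fell by 0.91 ± 0.22 in controls (adjusted p = 0.0116) and differed by -0.76 ± 0.22 after genistein (adjusted p = 0.0674). Iigp1 gave -1.05 ± 0.35 after genistein and -0.97 ± 0.35 in controls (adjusted p = 0.106 and 0.0582), and Irgm1 gave -0.44 ± 0.20 and -0.07 ± 0.20. So 1 of these 3 fell in controls and none after genistein, against 14.6% and 2.79% of all genes and targets.

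None of the 4 fitted oligoadenylate synthetase family members, which sense double-stranded RNA and activate RNase L or act as its relatives, was called with dexamethasone. Over all genes and targets 2.79% fell after genistein and 14.6% fell in controls. At those shares small sets such as this 1, the RNA sensors and the other effectors can hold no called gene. A lack of response is therefore not shown. Their differences ranged from -0.90 (Oasl1) to -0.08 (Oas3) after genistein and from -0.63 (Oasl1) to -0.11 (Oasl2) in controls. A dimmer probe of Oas3 was called lower in controls, at -1.81 (adjusted p = 0.0249). Oas1a, fitted without GenD array 4, gave -0.86 ± 0.39 and -0.07 ± 0.36 (adjusted p = 0.265 and 0.914). The 3 RNA sensors did not pass in either arm. Ddx58 (RIG-I) gave -0.75 ± 0.27 after genistein and -0.77 ± 0.27 in controls (adjusted p = 0.133 and 0.051), but another of its probes, equally well above background, gave 0.43 in controls. Of the other 9 effectors none passed in either arm, and Ifi44 had the most negative differences, at -0.97 ± 0.46 and -0.86 ± 0.46. For Isg20, 1 of these 9, a dimmer probe was called lower in controls, at -1.02 (adjusted p = 0.00536). Eif2ak2, the double-stranded RNA kinase PKR, gave -0.04 ± 0.21 and 0.26 ± 0.21, and Xaf1 gave 0.04 ± 0.31 and 0.01 ± 0.31.

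Over the whole list the median change was -0.59 after genistein and -0.67 in controls, where the medians of all genes and targets were -0.02 and -0.16. Values lay below 0 for 34 of 36 members in each arm, against 51.7% and 60.5% of all. After genistein the member median was -0.40 without GenV 3, with 29 of 36 below 0, and -0.39 without GenD 2, with 31. In controls it was -0.46 without SalD 3, with 34 of 36 below 0, and -0.74 without SalD 2, with 35. Dexamethasone and vehicle arrays did not overlap, with dexamethasone lower, for 10 of 36 members after genistein and 15 of 36 in controls, against 6.2% and 17.5% of all. The median of all genes in controls depended on scaling. It was -0.04 with quantile normalization and 0.07 with each array set to its median, and the member median minus it was -0.62 and -0.51. Under those 2 scalings 12 and 9 members fell in controls, and 35 and 29 lay below 0. Calls over all genes in controls were 36.7% higher ones here, 47.3% with quantile normalization and 64.8% with median scaling.

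Arrays were spread over 5 slides, each scanned at its own time, and each arm had 3 slides that held both of its groups. Within these slides the member median was -0.46, -0.80 and -0.03 after genistein and -0.64, -0.39 and -1.15 in controls, against -0.52 and -0.83 with slide as a block. On the genistein slide with -0.03, which holds GenD 4, 19 of 36 members lay below 0. Gbp2 was lower with dexamethasone within every slide of both arms, with differences of -2.06 to -1.43 after genistein and -3.21 to -1.40 in controls. The 6 calls after genistein depended on single arrays: 2 were left without GenD 2, without GenV 1 or without GenV 3. They were 1 under normexp background correction, 2 when only GenD and GenV were fitted and 15 under array weights. In controls leaving out 1 array left 10 to 16.

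Ligands, receptors and further pathway genes were listed apart from the members. Their counts stand against the same shares of all genes and targets, 2.79% lower and 2.49% higher after genistein and 14.6% lower and 8.44% higher in controls. Of 11 interferon genes 5 were measured. Ifng, interferon gamma, fell by 2.18 ± 0.45 in controls (adjusted p = 0.00478) and differed by -0.80 ± 0.45 after genistein (adjusted p = 0.391). Among 9 receptor chains and Janus kinases, Tyk2, Jak1 and Il10rb fell in controls, with changes of -0.61, -0.66 and -0.45, and none passed after genistein. Of 10 other STAT factors and IRFs, 3 fell and 1 rose in controls and none passed after genistein. Stat3 fell by 1.39 ± 0.28, Irf3 fell by 0.67 ± 0.15 and Irf5 fell by 0.63 ± 0.21 in controls, and Irf2, which competes with IRF1 for its sites, rose by 0.85 ± 0.23.

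Of 10 negative regulators 3 fell in controls, Socs1, Pias3 and Ptpn6, and none passed after genistein. Of 12 measured sensing genes 2 rose and 3 fell in controls, and 1 rose after genistein. Tlr7, the endosomal RNA receptor, rose in both arms, by 1.26 ± 0.19 after genistein (adjusted p = 0.00116) and 1.83 ± 0.19 in controls (adjusted p = 5.02e-05). Zbp1, a nucleic acid sensor, fell by 1.40 ± 0.43 in controls. Of 11 class I presentation genes 3 fell and 1 rose in controls. Psmb10, the remaining immunoproteasome subunit, fell in both arms, with -0.66 ± 0.18 after genistein and -0.71 ± 0.18 in controls (adjusted p = 0.0431 and 0.0122). Among 31 measured further interferon-stimulated genes, 7 fell and none rose after genistein, and 13 fell and 1 rose in controls. Cxcl10, a chemokine for T cells, changed by -2.52 ± 0.52 after genistein and by -2.50 ± 0.52 in controls (adjusted p = 0.0124 and 0.00522). Irgm2 changed by -1.11 ± 0.24 and -1.41 ± 0.24, both called. Ifi47 changed by -1.53 ± 0.29 after genistein (adjusted p = 0.0076) and by -1.20 ± 0.29 in controls (adjusted p = 0.0112). Gbp5 differed by -0.93 ± 0.27 after genistein (adjusted p = 0.0635) and fell by 2.30 ± 0.27 in controls (adjusted p = 0.000152).

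Summed macrophage, neutrophil and lymphocyte markers were lower with dexamethasone, and those of NK and plasmacytoid dendritic cells overlapped. As the sum over a list of linear signals relative to the array's 75th percentile, 12 macrophage and dendritic markers gave 27.8 to 38.6 in GenD, against 48.1 to 80.3 in GenV, and 25.5 to 33.3 in SalD, against 42.7 to 51.9 in SalV. The 6 neutrophil markers gave 0.52 to 1.01 in GenD, against 2.38 to 4.64 in GenV, and 0.56 to 1.49 in SalD, against 2.89 to 3.92 in SalV. The 11 lymphocyte markers gave 1.91 to 2.30 in GenD, against 2.46 to 3.30 in GenV, and 1.30 to 1.70 in SalD, against 2.03 to 2.35 in SalV. None of these ranges overlapped within an arm. The 7 NK cell markers overlapped in both, with 1.24 to 1.65 in GenD, 0.87 to 1.68 in GenV, 0.70 to 1.41 in SalD and 1.20 to 1.37 in SalV. So did the 4 plasmacytoid dendritic markers, of which none was called in either arm. They gave 4.63 to 6.34 in GenD, 3.89 to 8.31 in GenV, 5.3 to 7.46 in SalD and 6.76 to 10.5 in SalV. After genistein 3 macrophage, 5 neutrophil and 1 lymphocyte markers fell and 1 NK cell marker rose. In controls 5 macrophage, 5 neutrophil, 6 lymphocyte and 4 NK cell markers fell, and 1 macrophage and dendritic marker rose. Of all genes and targets 2.79% fell and 2.49% rose after genistein, and 14.6% fell and 8.44% rose in controls. The 6 adipocyte markers gave 7.43 to 130 in SalD, against 0.78 to 11.1 in SalV, and 5 of them rose. All of these markers were measured, and their part in the fall of the members was not tested. In whole uterus, fewer cells of a type and less RNA per cell cannot be told apart.

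The difference between the 2 dexamethasone responses, (GenD minus GenV) minus (SalD minus SalV), was called for no member and for no gene of all (0 of 24666, 0%). At an unadjusted p below 0.05 it held for 2 of 36 members by their brightest probes, against 15.5% of all. These were Irf1, with 0.57 ± 0.20 (adjusted p = 0.232), and Ifi35, with 0.65 ± 0.27 (adjusted p = 0.283). Dimmer probes of Isg20, Irf8, Psmb8, Ddx58 and Irf1 also had an unadjusted p below 0.05. They gave 0.92, 0.55, 0.81, -1.002 and 0.67, and none passed (adjusted p = 0.215 to 0.28). The remaining dimmer probes did not reach that level. The share of members at this level therefore depends on the probe that stands for each gene. Among the brightest probes the largest value was that of Gbp4, 0.87 ± 0.48 (adjusted p = 0.387). The member median was 0.05, or -0.14 with each array set to its median. It was 0.32 without GenV 3, 0.26 without GenD 2, -0.07 without SalD 3, 0.18 without SalD 2 and 0.33 with slide as a fixed block. For the 7 members called in controls and not after genistein, a different response in the 2 arms was therefore not shown.

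**Figure D5:**
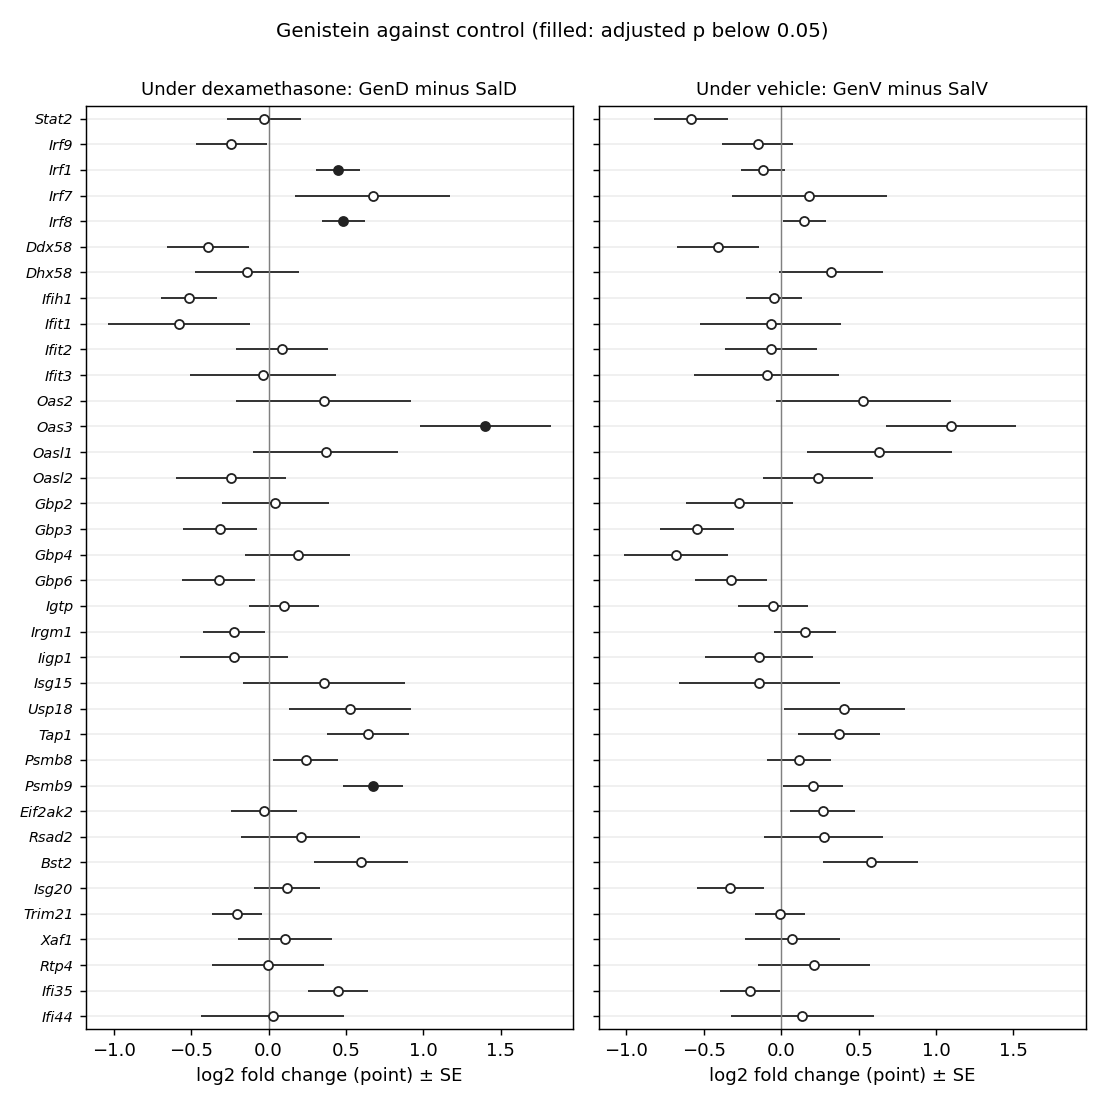
Log2 fold change ± SE of each member with neonatal genistein under dexamethasone (left, GenD minus SalD) and under vehicle (right, GenV minus SalV); filled points have an adjusted p below 0.05. Under dexamethasone Irf1, Irf8, Oas3 and Psmb9 are filled on the right of 0, and under vehicle no point is filled.

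Under vehicle, neonatal genistein changed no member past the threshold, and members lay on both sides of 0. In GenV against SalV 18 of 36 lay below 0, against 44.5% of all genes and targets, and the median was 0.03. Of the 36, 3 had an unadjusted p below 0.05 (13.9% of all genes and targets). Of all, 1 transcript passed (0.00405%), 4930577N17Rik, at 0.97 ± 0.12 (adjusted p = 0.0331), named here after its value was seen. All 4 oligoadenylate synthetase family members lay above 0, Oas3 with the largest difference at 1.10 ± 0.42 (adjusted p = 0.344). All 4 guanylate-binding proteins lay below 0, from -0.68 ± 0.34 (Gbp4) to -0.27 ± 0.34 (Gbp2). Without GenV 3 the member median was -0.15. Within slides it was 0.52, -0.23 and -0.36, and the first of these slides holds GenV 3.

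Under dexamethasone, 4 members were higher after genistein and none lower in GenD against SalD, where 16.6% of all genes and targets were higher and 6.39% lower. These 4 were 11.1% of the members, a smaller share than over all genes and targets. They were Oas3, Psmb9, Irf8 and Irf1. Oas3 read -3.67, -3.45, -3.34 and -2.27 on GenD arrays, against -4.25, -4.34, -4.89 and -4.86 on SalD arrays. The vehicle arrays read -3.54, -3.16, -2.28 and -3.42 in GenV, against -3.24, -3.95, -5.37 and -4.23 in SalV. GenD arrays all lay above SalD arrays, and among vehicle arrays SalV 1 lay within the GenV range. The change of Oas3 under dexamethasone was 1.40 ± 0.42 (2.64-fold, adjusted p = 0.0305).

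The other 3 are genes that fell with dexamethasone in controls, and their GenD means lay between the SalD and the vehicle means. Both comparisons use the same SalD arrays, so a low SalD level enters both. The interaction was called for no member, so a weaker response after genistein was not shown. Psmb9 was higher by 0.67 ± 0.19 (adjusted p = 0.0257), Irf8 by 0.48 ± 0.14 (adjusted p = 0.0259) and Irf1 by 0.45 ± 0.14 (adjusted p = 0.0372) in GenD than in SalD, with groups that did not overlap for any of the 3. Together with Oas3, 4 of 36 members had GenD arrays wholly above SalD arrays, against 19.6% of all, and for Psmb9 the lowest GenD and the highest SalD array both read 1.57. The guanylate-binding proteins did not share this: Gbp2 differed by 0.04 ± 0.34, Gbp4 by 0.19 ± 0.34, Gbp3 by -0.31 ± 0.24 and Gbp6 by -0.32 ± 0.23, all with overlapping groups. Tap1 gave 0.64 ± 0.27 (adjusted p = 0.0915). Ifih1 (MDA5), an RNA sensor, gave -0.51 ± 0.18 (adjusted p = 0.0528). A dimmer probe of Ifih1 was called lower, at -1.73 (adjusted p = 0.0449), as was one of Ddx58, at -1.31 (adjusted p = 0.00773). The member median was 0.09, against 0.12 for all genes (-0.02 and 2e-04 with median scaling), and 15 of 36 lay below 0, against 42.4% of all. That median was 0.21 without GenD 2, -0.08 without SalD 3 and 0.205 without SalD 2.

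Pathway genes were also called higher: 5 of 12 nucleic acid sensing genes, 2 of 10 negative regulators, 1 of 5 measured interferon genes, 1 of 10 other STAT factors and IRFs and 1 of 11 class I presentation genes, against 16.6% of all. Of the 31 further interferon-stimulated genes 1 was higher and 1 lower, and no receptor chain or Janus kinase passed. Ifna2, an interferon alpha gene with near-identical relatives that the probe may not tell apart, was higher by 1.95 ± 0.37 (adjusted p = 0.00537), and Tlr9, the endosomal DNA receptor, by 1.21 ± 0.20 (adjusted p = 0.00368). Irf3 was higher by 0.62 ± 0.15 (adjusted p = 0.0118) and Nlrc5, the class I transactivator, by 1.41 ± 0.30 (adjusted p = 0.00771) in GenD than in SalD. Of the leukocyte markers, 6 of 11 lymphocyte and 4 of 7 NK cell markers were higher and none lower. Of 12 macrophage and dendritic markers 1 was higher and 2 were lower, of 4 plasmacytoid dendritic markers 1 was lower, and none of 6 neutrophil markers passed. The lymphocyte sum was 1.91 to 2.30 in GenD, against 1.30 to 1.70 in SalD, and the NK cell sums overlapped. Their part in the higher members was not tested. On the 2 slides that held both groups the member median was -0.48 and 0.81, with 27 and 1 of 36 members below 0. Oas3 was higher on both, by 0.80 and 2.62, and Psmb9 by 0.12 and 1.28. No member passed without GenD 3 or without SalD 3, and 1 was higher without SalD 4. Without GenD 1, 2 were higher, and without GenD 4, 2 were higher and Ifih1 was lower, at -0.63 (adjusted p = 0.0361). With quantile normalization 2 members were higher, with median scaling 1 was higher and 1 lower, and of all calls 72.2% were higher ones here and 56.3% under each of those scalings.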

How the data were processed

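RNA of whole uterus was hybridised to 16 Agilent one-colour arrays of design 014868. The deposited spot intensity was made with Agilent Feature Extraction, version 12.0.0.7 per the file headers and 9.5 per the submitters' processing notes. It had local background removed and spatial trends corrected, and was not normalized between arrays. The deposited flags, per the file headers 0 or 1, served as filters, and the deposited series value table did not differ from it on any spot compared (largest difference 0).

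Here log2 intensity minus the array's 75th percentile was used, without control spots and flagged outliers. Dropping 807 probes with a missing value and those above background on fewer than 4 arrays left 32614. RefSeq accessions were joined to GRCm38.p6 symbols, naming 28223 of 29245 probes. A limma model of group means (version 3.58.1, R 4.3.3) used all arrays. Moderated tests were two-sided, with Benjamini-Hochberg adjustment over 24666 genes and targets in each of 5 comparisons, and an adjusted p below 0.05 was called. The script was tested on simulated data. The number of arrays limits the precision.

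Members, gene lists and tests were chosen with earlier results of these data known. All 39 members may be named. Every array is given for the called members with the 3 largest changes per comparison, Stat2, Irf9, Irf7 and the largest interaction. Of other lists, up to 4 called genes are named, and 1 gene is not reported here. Figures used matplotlib 3.10.9 in Python 3.11.15.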

Additional observations from a re-analysis of the deposited data

Results flagged for a closer look

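Dixon's test at the 95% level was run on each of the 36 members in each of the 4 groups, 144 tests, and set apart the highest or lowest array in 11. Chance alone would set apart about 1 in 20. GenV array 3 was the highest of its group in 6 of these, with scaled log2 signals of 0.64 for Irf7, 0.67 for Dhx58, 0.78 for Oasl1, 5.08 for Bst2, 1.81 for Xaf1 and 4.50 for Rtp4. GenD array 2 was the lowest of its group for Stat2, at -1.09. Ddx58 was lowest on GenV array 4, at -1.37, and highest on SalD array 4, at -1.03. Dhx58, a regulator of the RNA sensors, was highest on SalD array 2, at -0.27, and lowest on SalV array 3, at -1.12.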

How the results depend on the processing

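In the 31 alternatives run, every called member kept its direction. For dexamethasone in controls Gbp2, Gbp3, Gbp4, Gbp6, Ifit3, Irf1, Irf8, Psmb9 and Stat2 stayed called in all 31, Igtp in 29, Psmb8 in 26, Ifit2 in 20 and Isg15 in 15. After genistein Gbp2 stayed called in 31, Gbp4 in 30, Gbp3 and Gbp6 in 25, Irf8 in 23 and Ifit3 in 21. For genistein under dexamethasone Oas3 and Psmb9 stayed called in 25, Irf8 in 24 and Irf1 in 17.

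Normexp background correction, run on the median spot and background signals, gave 370 calls over all genes for dexamethasone after genistein with 1 member lower, 3323 in controls, 3297 for genistein under dexamethasone with 2 members higher and 1 lower, and 0 for genistein under vehicle. Array weights gave 6061 calls after genistein with 1 member higher and 15 lower. For genistein under dexamethasone they gave 11033 calls with 9 members higher and 1 lower, for the interaction 96 calls with a member median of 0.39, and for genistein under vehicle 2 calls. Fitting only the arrays compared gave 569 calls after genistein with 2 members lower, and slide as a fixed block gave 831. Leaving out SalD arrays 2 and 3 together gave 3587 calls in controls and 2396 for genistein under dexamethasone with 0 members higher. Leaving out GenV arrays 3 and 4 together gave 1 interaction call. Under genistein without dexamethasone the 1 call went to 0 with quantile normalization, median scaling, no filter, slide as a fixed block, a variance trend, the replicate block, a fit of GenV and SalV alone and either pair of arrays left out. For genistein under dexamethasone 2 members were higher with quantile normalization, and 1 was higher and 1 lower with median scaling. There 1 member was lower with a filter on all 16 arrays, with the mean of a gene's probes and with a variance trend. The causes were not tested.

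Leaving out 1 array gave 718 to 1228 calls after genistein with 2 to 6 members lower, 3109 to 5884 in controls with 10 to 16 members lower, 0 to 1 for the interaction and 0 to 2 for genistein under vehicle. For genistein under dexamethasone it gave 3295 to 5980 calls, with 0 to 4 members higher and 0 to 1 lower. The calls over all genes moved by over 1.5 times without GenD 2, GenD 3 or GenV 1 after genistein, without SalV 1 or SalD 4 in controls, and without GenD 3, SalD 3 or SalD 4 for genistein under dexamethasone.

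No pairing by replicate number was seen: deviations of same-numbered arrays correlated at -0.37 to 0.38, against -0.42 to 0.39 for other pairs. These are ranges only and cannot exclude a pairing. With the replicate number as a block, 5 members were lower after genistein and 12 in controls, and 4 were higher for genistein under dexamethasone. One alternative, keeping probes with a missing value on up to 4 arrays, was chosen after seeing the data.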

Other observations

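Of the members, 12 had more than 1 probe that passed the filter. Several of the dimmer probes gave larger differences than the brightest one. In controls the second probe of Psmb8 gave -1.34 in SalD against SalV (adjusted p = 0.00133), that of Irf8 -1.05 (adjusted p = 0.000451) and that of Irf1 -0.96 (adjusted p = 0.00523). The second probe of Isg20, an RNA exonuclease, gave -1.02 (adjusted p = 0.00536), whereas the brightest gave -0.58 (adjusted p = 0.0654). The second probe of Oas3 gave -1.81 in SalD against SalV (adjusted p = 0.0249) and 2.24 in GenD against SalD (adjusted p = 0.0116). In the second comparison the other probe of Psmb8 gave 1.02 (adjusted p = 0.00826). Dimmer probes of RNA sensors were called lower there. One of Ddx58 gave -1.31 (adjusted p = 0.00773), and that of Ifih1 gave -1.73 (adjusted p = 0.0449). A further Ddx58 probe gave 0.14 (adjusted p = 0.757). Probes of Ddx58 disagreed in sign in controls, at -0.77, 0.43, -0.59 and -0.27.

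Genes outside the interferon pathway also differed. The summed adipocyte markers spanned 4.02 to 40.1 in GenD, 9.1 to 38.7 in GenV, 7.43 to 130 in SalD and 0.78 to 11.1 in SalV, and none of the 6 passed in GenD against GenV. Of 5 smooth muscle markers 2 fell in SalD against SalV and none passed in GenD against GenV. Of 8 endothelial markers 1 fell in GenD against GenV and 4 in SalD against SalV. Over all genes and targets 2.79% and 14.6% fell in these 2 comparisons.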
